A study of Mus musculus with 4 samples.

Results

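Among CD45+ cells sorted from MC38 tumors, 3055 of 28194 single-cell profiles carried the transcripts of a T cell and of a macrophage together. They were chosen by measured values: at least 500 detected genes, at most 10% mitochondrial UMIs, at least 10 UMIs (unique molecular identifiers, 1 per captured molecule) of Cd3d, Cd3e and Cd3g summed, and at least 0.2% of all UMIs on C1qa, C1qb and C1qc. They are called mixed profiles here, since doublets, attached cells and engulfed cells cannot be told apart in these data. For comparison, 14344 single macrophages met the same C1q minimum with 0 Cd3 UMIs, and 1009 single T cells met the Cd3 minimum with C1q under 0.05% and 12 macrophage lineage genes under 0.3% of UMIs.

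MC38, a mouse colon adenocarcinoma line, was grown under the skin of C57BL/6 mice whose CTLA-4 is humanized (B-hCTLA-4), a genotype that all 4 groups share. When tumors measured about 100 mm3, mice received an isotype control antibody (human IgG1, 10 mg/kg), ipilimumab against human CTLA-4 (human IgG1, 10 mg/kg), AT130-2 against mouse FcgRII (mouse IgG1 with an altered Fc part, 20 mg/kg), or both. After 3 treatments, on day 8, tumors of 11 mice per group were pooled into 1 sample, live CD45+ cells were sorted, fixed and hybridized with barcoded probes (10x Flex), and the samples were pooled for droplet capture. There is therefore 1 library per group, each group is confounded with its library, and no test between treatments was made. These numbers come from the sample records, and the article gives other values for some of them. An age was stated for wild-type mice, and whether it holds for the B-hCTLA-4 mice was not stated. For the libraries of the 2 single antibodies, the sample title and the treatment label name opposite antibodies, so they are called CTLA-4-titled and FcgRII-titled after the title alone.

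Cd3d, Cd3e and Cd3g encode invariant chains of the T cell receptor complex, and C1qa, C1qb and C1qc encode the subunits of complement C1q, which tumor macrophages make in large amounts. Macrophages clear antibody-coated or dying cells, and they also hold T cells in contact while presenting antigen on MHC class II. Foxp3+ regulatory T cells (Tregs), CD4+ helper cells and CD8+ cytotoxic cells all meet macrophages in tumors. In droplet methods, 2 cells can also enter 1 droplet by chance.

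The barcode of a cell in this protocol has 24 bases, of which the first 16 name the droplet and the last 8 name the sample. This construction lets cells of different samples in the same droplet be recognised, and it is shown with 1 droplet below, in which the droplet part is in lower case and the sample tag in capitals.
Single T cell, CTLA-4-titled library: aaaccaatctttggtgAAGTAGAG
Single macrophage, combination library: aaaccaatctttggtgACAGTCTG
The first profile held 18956 UMIs with 93 from Cd3 genes and 2 from C1q genes, and the second held 6585 UMIs with 0 from Cd3 genes and 84 from C1q genes. Had both cells carried the same tag, their reads would have formed 1 profile. Of 23366 droplets that held a cell, 3998 held cells of 2 libraries and 463 of 3.

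Mixed profiles were most of the cells with at least 10 Cd3 UMIs in 3 libraries. Single T cells with fewer Cd3 UMIs are not counted. They numbered 1109 of 8148 cells in isotype control, 455 of 6364 in the CTLA-4-titled library, 469 of 6083 in the FcgRII-titled library and 1022 of 7599 in the combination. Among cells with at least 10 Cd3 UMIs, the mixed share was 76.5% (95% exact binomial interval 74.2 to 78.6), 44.2% (41.1 to 47.3), 72.5% (68.9 to 75.9) and 69.9% (67.5 to 72.3), in the same order. The CTLA-4-titled library stood apart with the lowest share, and it also held 464 of the 1009 single T cells. As a share of all C1q+ cells, mixed profiles were 20.3%, 12%, 10.0% and 22.1%. Intervals throughout cover counting error only, not the spread between mice or libraries.

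The thresholds cut through a continuum for Cd3 and through a sparse zone for C1q. The 40 profiles just inside the C1q minimum (0.2 to 0.25%) had a median of 14848.5 UMIs, and the 44 just outside (0.15 to 0.2%) a median of 11172.5. The 188 profiles with 10 or 11 Cd3 UMIs had a median of 27322.5 UMIs and the 155 with 8 or 9 a median of 27677.0. Another 267 cells with at least 10 Cd3 UMIs fell between the mixed and the single T cell limits on C1q and macrophage genes, and 1164 C1q+ cells held 1 to 9 Cd3 UMIs.

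The T cell side of the label was checked on further genes, and macrophage lineage genes are given beside them. All 14 T lineage genes (such as Trac, Lck and Thy1) were higher in mixed profiles than in single macrophages in 4 of 4 libraries, and all 12 macrophage lineage genes (such as Csf1r, Adgre1 and Apoe) were higher than in single T cells in 4 of 4. The second comparison follows from how single T cells were chosen, by a limit on these 12 genes, and is no check of its own. Trac, the receptor alpha constant chain, had 409, 567, 457 and 352 CPM (UMIs per 1000000 UMIs) in mixed profiles against 0.40 to 1.09 in single macrophages. Csf1r, the macrophage growth factor receptor, had 1308, 1170, 1291 and 1080 CPM against 3.69 to 17.0 in single T cells. No gene of the T lineage list exceeded its level in single T cells in all 4 libraries, and none of the macrophage list its level in single macrophages. Each lineage was thus diluted in the mixed profiles, T cell genes far more than macrophage genes.

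Mixed profiles were large. Their median was 39661 UMIs in isotype control, 33409 in the CTLA-4-titled library, 38076 in the FcgRII-titled library and 45095 in the combination, against 17692, 21546, 21089 and 24203 in single macrophages and 4407, 5427, 4829 and 5927 in single T cells. The median of mixed profiles thus exceeded the sum of the medians of 1 macrophage and 1 T cell in every library, by a factor of 1.79, 1.24, 1.47 and 1.5. The smallest excess again belonged to the CTLA-4-titled library. The Cd3 minimum is a number of UMIs and is met more easily by large profiles, and its part in this excess was not tested.

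**Figure D1:**
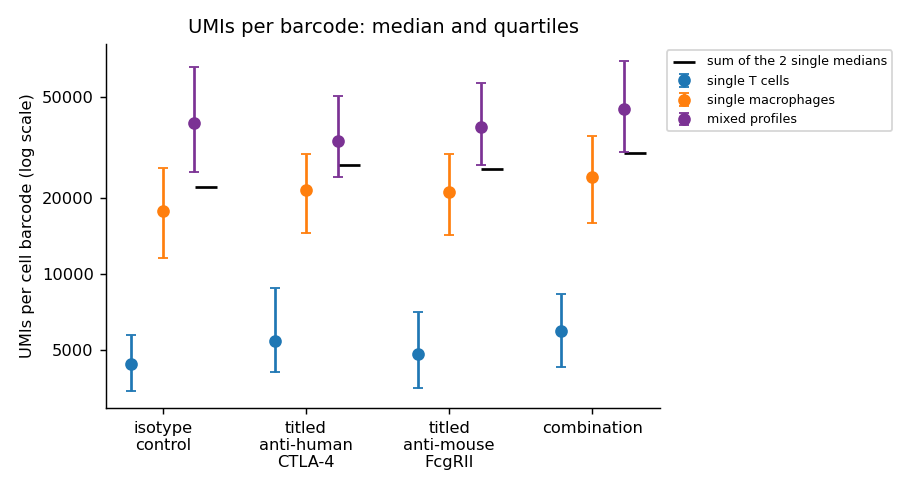
UMIs per profile (log axis) for single T cells, single macrophages and mixed profiles in each of the 4 libraries; points are medians, bars run between the quartiles, and dashes mark the sum of both single medians. The medians of mixed profiles, between 33409 and 45095 UMIs, lie above those of single macrophages and single T cells in every library.

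Markers of further cell types were also more frequent in mixed profiles. At least 3 UMIs of the NK genes Ncr1, Klrb1c and Klre1 were found in 28.5%, 27.7%, 24.5% and 32.5% of mixed profiles against 6.84%, 3.36%, 3.07% and 6.93% of single macrophages. Klre1 and Klrb1c are also made by some T cells, and 10.4% to 21.6% of single T cells reached the same minimum. For B cell genes, which T cells do not make, the shares were 23.2%, 13.9%, 19.4% and 11.6% in mixed profiles against 7.39%, 6.34%, 7.35% and 4.64% in single macrophages and at most 1.52% in single T cells. The neutrophil genes Csf3r, Cxcr2 and Retnlg reached 3 UMIs in 63.6%, 56.3%, 54.8% and 68.4% of mixed profiles. In single macrophages the shares were 35.4%, 40.3%, 33.6% and 52.1%. Csf3r itself stood at 98.8 to 164 CPM in single macrophages, so this minimum does not set neutrophils apart from macrophages. Per total UMI, however, the 4 B cell genes stood at 50.9, 36.5, 35.3 and 16.1 CPM in mixed profiles and at 44.6, 25.7, 31.8 and 17.5 in single macrophages, with Cd79b the most abundant and no gene at 0. For the 5 neutrophil genes the summed levels were 181, 156, 136 and 416 CPM against 190, 156, 146 and 351, with Csf3r the most abundant in all 4 libraries. The 5 genes of the NK list summed to 96.8, 87.8, 63.65 and 78.3 CPM in mixed profiles against 62.2, 31.1, 29.3 and 52.3 in single macrophages. They were thus higher per total UMI in every library, and stood at 124 to 274 CPM in single T cells. The greater depth of mixed profiles moves with these shares, and its part in them was not tested.

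Droplets shared between samples gave a rate at which separately tagged cells met. A T cell of one library and a macrophage of another shared a droplet at 19.2, 18.3, 19.2 and 20.2 per 1000000 possible pairs. Their 95% exact Poisson intervals lay between 16.8 and 21.8. Each rate pools T cells of a library with macrophages of the others, and the reverse, so the rates share pairs. T cells here were all profiles with at least 10 Cd3 UMIs and macrophages all C1q+ profiles, mixed ones included. Within a library, mixed profiles corresponded to 140, 116, 155 and 151 per 1000000 pairs of T cells and macrophages. The rate within libraries was 7.31, 6.35, 8.06 and 7.48 times that between libraries, and its intervals (106 to 170) did not meet those of the rate between libraries. At the rate between libraries, 152, 71.7, 58.2 and 137 mixed profiles would be found, or 13.7%, 15.7%, 12.4% and 13.4% of those observed.

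Other pairs of cell types were also found together more often within than between libraries. B cells and macrophages were found together at 151, 154, 153 and 153 per 1000000 pairs within libraries, with intervals from 89.2 to 245, and at 15.9 to 18.8 between libraries. NK cells and macrophages were found together at 91.3, 56.9, 86.3 and 83.7 per 1000000 within libraries and at 18.2 to 20.5 between them. The pairing of T cells and macrophages therefore fell within the intervals of B cells and macrophages in all 4 libraries and above those of NK cells and macrophages. T cells and B cells were found together at 269, 189, 221 and 143 per 1000000 pairs within libraries, from 44, 8, 5 and 5 profiles, and at 19.8 to 34.2 between them. In isotype control their interval (195 to 361) lay above that of T cells and macrophages (132 to 149). These pairings are not separate, since a profile can count in several of them. In isotype control, 93 of the 113 profiles counted as B cells were also C1q+. NK cells here had to hold fewer than 3 Cd3 UMIs, so that NK cells caught with a T cell were not counted.

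Rates between libraries record cells that met after the samples were pooled, while those within libraries also hold any cells that were joined before. Cells of each library that shared a droplet with another library made up 33%, 36.0%, 40.3% and 34.2% of mixed profiles, 32.3%, 35.5%, 34.5% and 31.9% of single macrophages and 30.2%, 31.7%, 32.6% and 26.1% of single T cells. Mixed profiles had the highest share in every library. Their intervals overlapped those of single macrophages in 4 of 4 libraries, the FcgRII-titled library being the closest to a gap (35.8 to 44.9 against 33 to 36.0). How probes or samples were mixed before capture was not tested.

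**Figure D2:**
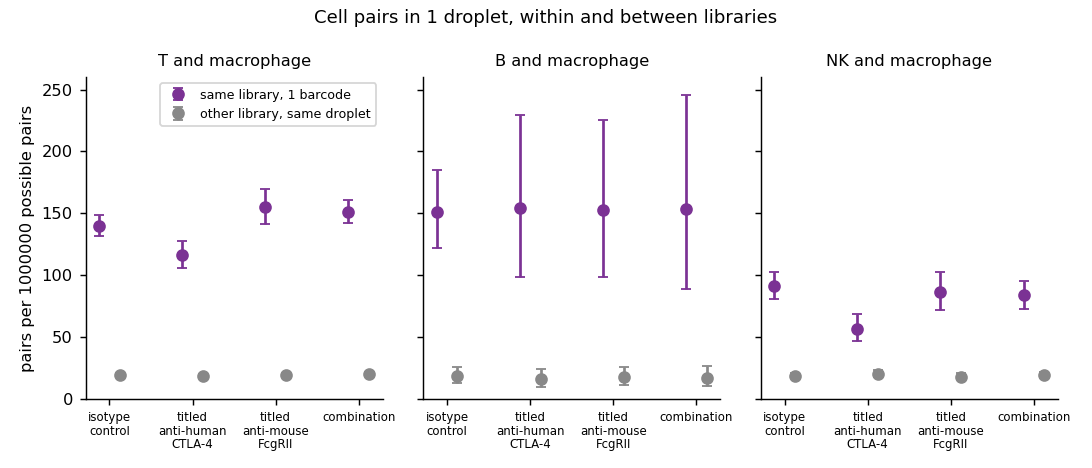
Pairs per 1000000 possible pairs (vertical axis) for T cells with macrophages, B cells with macrophages and NK cells with macrophages, within a library and between libraries, for each library with 95% exact Poisson intervals. T cells and macrophages met at 116 to 155 per 1000000 within libraries and at 18.3 to 20.2 between them.

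The T cell side of mixed profiles was classed by at least 2 UMIs of Cd8a and Cd8b1 (CD8), of Foxp3, or of Cd4 alone (CD4). This gave 1266 CD8, 575 CD4 and 493 Foxp3 profiles, 404 profiles with markers of several classes and 317 with none. Several classes means CD8 genes together with Cd4 or Foxp3, while Foxp3 profiles may also hold Cd4. CD8 profiles made up 27.0%, 53.2%, 35.4% and 54.7% of mixed profiles in isotype control, CTLA-4-titled, FcgRII-titled and combination. Foxp3 profiles made up 27.4%, 9.23%, 27.3% and 1.86%, and CD4 profiles 18.8%, 19.1%, 17.9% and 19.2%. Libraries thus differed widely in CD8 and Foxp3 profiles, with 304 Foxp3 profiles in isotype control and 19 in the combination, and little in CD4 profiles. In single macrophages, which should lack these genes, the same minimum was met by 0.0757% to 0.251% (CD8), 0.565% to 1.43% (CD4) and 0 to 0.0505% (Foxp3) of cells, at lower median depth.

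Single T cells of the same libraries showed nearly the same order. Among them, 31.2%, 53.9%, 41.7% and 56.9% were CD8, 21.8%, 26.3%, 19.7% and 24.2% CD4, and 24.8%, 7.76%, 18.2% and 1.90% Foxp3. Because mixed profiles hold more Cd3 UMIs, each cell was also thinned to 10 Cd3 UMIs. At that depth the CD8 share of mixed profiles minus that of single T cells was 2.08, 1.61, -2.07 and 4.09 percentage points, and the unthinned difference was -4.23, -0.69, -6.28 and -2.17. The sign of the CD8 difference therefore depended on the depth in 3 libraries, and the thinned difference was below the width of the single T cell intervals in all 4 libraries. The CD4 share was lower in mixed profiles in all 4 libraries on both scales, by 0.05 to 5.48 percentage points after thinning.

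Foxp3 made up a larger share of mixed profiles than of single T cells at matched depth. At 10 Cd3 UMIs, its share in mixed profiles exceeded that in single T cells by 3.14, 1.92, 7.87 and 0.762 percentage points, while the unthinned difference in the combination was -0.037. Each thinned difference was below the width of the single T cell interval (19.0 to 31.3, 5.49 to 10.6, 12.0 to 25.8 and 0.519 to 4.78%). A profile that holds a Treg and a CD4 helper cell counts as Foxp3 and not as CD4. The part of this rule in the Foxp3 and CD4 shares was not tested. Summed over cells, there were 12.2, 3.41, 10.9 and 0.764 Foxp3 UMIs per 100 Cd3 UMIs in mixed profiles against 8.66, 1.97, 6.55 and 0.305 in single T cells. On the same scale Cd8 went both ways, and Cd4 was higher in mixed profiles in isotype control (11.6 against 9.14), the FcgRII-titled library (9.15 against 7.02) and the combination (8.45 against 8.04), opposite to the lower share of CD4 cells. For Foxp3, mixed profiles were higher in 4 of 4 libraries on this ratio, although the intervals of the share of cells overlapped in each (for the FcgRII-titled library, 23.3 to 31.6% against 12 to 25.8%). In the combination, the single T cells held 4 Foxp3 cells, so that the ratio there rests on few molecules.

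Profiles with T cell markers of several classes were almost confined to the mixed set. They made up 16.5%, 8.57%, 8.32% and 14.0% of mixed profiles against 0.495%, 0.862%, 0 and 0.948% of single T cells (0 of 132 cells in the FcgRII-titled library, which allows a share of up to 2.76% by the exact interval). After thinning to 10 Cd3 UMIs the shares were 5.94%, 2.66%, 3.17% and 5.04% against 0 to 0.283%. Their median depth was 76120, 54569, 57100 and 79354 UMIs, with 55 to 63 Cd3 UMIs, compared with 34312 to 45226 UMIs and 32 to 40 Cd3 UMIs in CD8 profiles of the same libraries. Of the 183 such profiles in isotype control, 122 joined CD8 and Foxp3 transcripts.

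**Figure D3:**
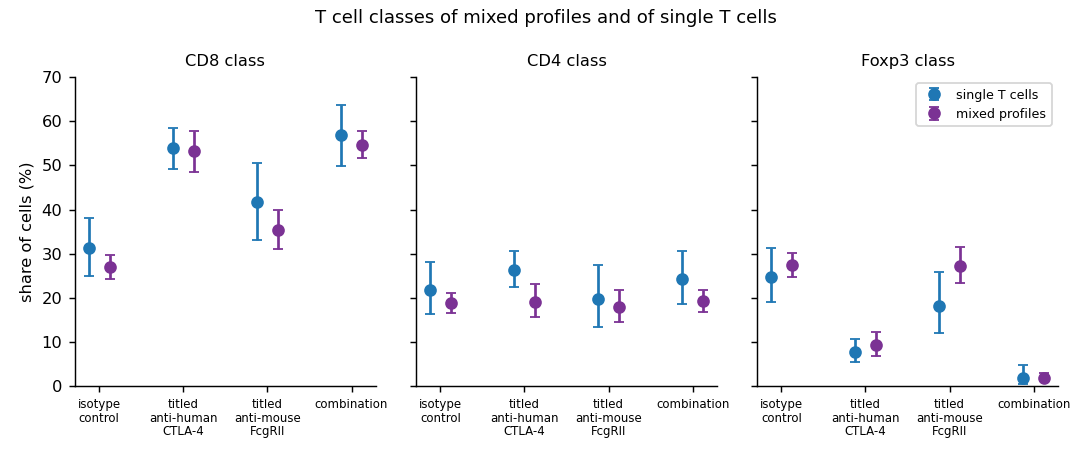
Percent of profiles classed as CD8, CD4 or Foxp3 (vertical axis, 1 panel per class) among mixed profiles and single T cells of each library, with 95% exact binomial intervals. CD8 profiles range from 27.0% in isotype control to 54.7% in the combination, and Foxp3 profiles from 27.4% to 1.86%.

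Whole transcriptomes of mixed profiles were close to a weighted sum of both cell types. From 332 genes at least 20-fold higher in single T cells and 371 genes at least 20-fold higher in single macrophages, the T cell part was estimated at 14.6%, 20.0%, 15.1% and 15.7% of UMIs and the macrophage part at 84.8%, 80.1%, 83.3% and 83.7%. The parts were estimated separately and came to 99.4%, 100.1%, 98.4% and 99.3% together. Across 8964 genes with measurable levels, 0 (0.0%) stood 2-fold above and 0 (0.0%) 2-fold below the expected sum in all 4 libraries, and 8855 genes (98.8%) lay within 1.5-fold in all 4. Across genes, which are not independent, Pearson's r of the log levels with the expected sum was 0.997, 0.995, 0.994 and 0.997, and with single macrophages alone 0.944, 0.917, 0.926 and 0.943. Genes of both panels are among those compared, and the estimate fits them by construction.

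In amount, the macrophage part was larger than a typical single macrophage. It came to 2.16, 1.46, 1.58 and 1.77 times the mean UMIs of single macrophages, and the T cell part to 1.48, 1.17, 1.09 and 1.25 times the mean of single T cells. By class and against single T cells of the same class, the T cell part came to 1.05, 1.04, 0.969 and 1.16 times the mean for CD8, 1.06, 0.882, 1.06 and 0.971 times for CD4, and 1.41, 1.40, 0.965 and 0.848 times for Foxp3. Each class thus had values above and below 1, and the last Foxp3 value rests on 4 single T cells. The macrophage part of CD8 profiles was 1.30 to 1.69 times, of CD4 profiles 1.18 to 1.68 times and of Foxp3 profiles 1.42 to 2.10 times that of single macrophages. The ranges of the classes overlap.

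**Figure D4:**
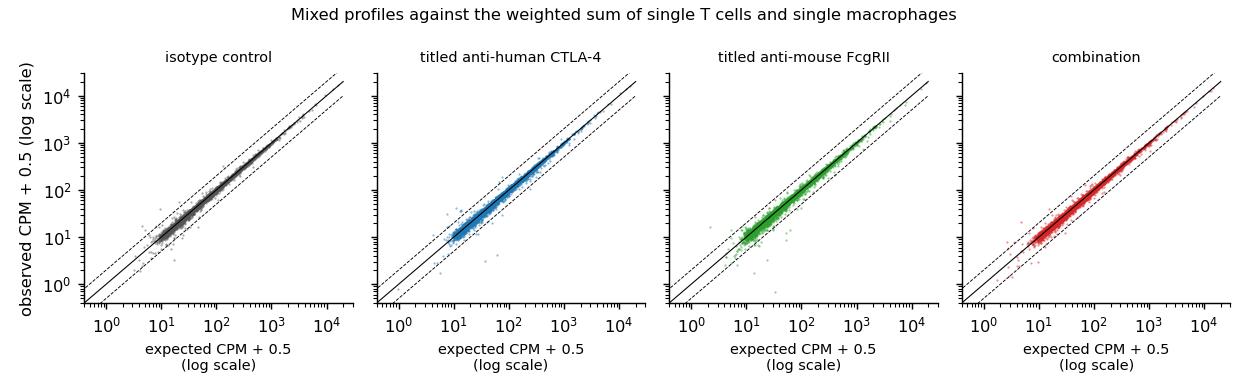
Observed CPM + 0.5 of each gene in mixed profiles (vertical, log axis) against the expected CPM + 0.5 from the weighted sum of single T cells and single macrophages (horizontal, log axis), 1 panel per library and 1 point per gene. The solid line marks equality and the dashed lines 2-fold distances, and 8855 of 8964 genes lay within 1.5-fold in all 4 libraries.

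Macrophage states were compared on genes at least 20-fold higher in single macrophages than in single T cells (macrophage-restricted genes), to keep T cell RNA small. The level below is in UMIs per 10000 UMIs of the 371 macrophage genes. Within a library the gap could be smaller. In isotype control Ctss had 7273 against 488 CPM, and in the FcgRII-titled library Cd74 had 6111 against 426. Of 425 macrophage-restricted genes, 114 (26.8%) were higher in mixed profiles than in single macrophages of the same library in all 4 libraries. In all 4, 86 (20.2%) were lower. The rule for mixed profiles sets this contrast, so the values are a description and were not tested. The state lists are read against those shares.

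Genes of antigen presentation were slightly higher in mixed profiles. All 5 macrophage-restricted MHC class II genes were higher in 4 of 4 libraries, with ratios between 1.05 and 1.11 and a median of 1.07. H2-Aa, an MHC class II alpha chain, had a level of 581, 649, 294 and 638 in mixed profiles against 538, 609, 283 and 628 in single macrophages. The difference was small beside the spread between libraries, in which the FcgRII-titled library was lowest on both sides. Cells with at least 3 H2-Aa UMIs, after thinning to 715 macrophage panel UMIs, made up 85.9%, 85.7%, 63.8% and 92.7% of mixed profiles against 71.4%, 77.2%, 50.6% and 85.5% of single macrophages, and no interval overlapped (unthinned, 90.0%, 89.9%, 72.9% and 95.3% against 75.3%, 81.8%, 56.0% and 89.3%). Cells with fewer panel UMIs were left out, 49, 22, 7 and 42 mixed profiles and 619, 322, 395 and 282 single macrophages. H2-Aa was thus found in more of the mixed profiles, while its summed level differed little.

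Genes of the Spp1 state had lower summed levels in mixed profiles. Spp1 encodes the matrix protein osteopontin and Mmp12 the macrophage elastase, and their levels were lower in 4 of 4 libraries (2 of 3 restricted genes described on this list; the other was Vegfa, lower in 3). Mmp12 showed the largest difference, with a level of 45.4, 58.4, 29.5 and 98.7 in mixed profiles against 66.7, 78.4, 58.9 and 149 in single macrophages. Spp1 stood at 107, 85.8, 107 and 77.7 against 117, 95.8, 186 and 95.4. The combination was highest for Mmp12 on both sides, and the FcgRII-titled library for Spp1 in single macrophages. The mean ratios within libraries were 0.640 (Mmp12) and 0.788 (Spp1). The share of cells with at least 3 Spp1 UMIs at 715 macrophage panel UMIs was not lower in 3 libraries, at 48.8%, 31.7%, 51.0% and 38.5% of mixed profiles against 40.7%, 34.3%, 50.9% and 34.1% of single macrophages (unthinned, 69.3%, 48.1%, 72.9% and 61.9% against 49.8%, 46.1%, 62.9% and 46.0%), so no order is read for Spp1 positive cells.

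Inflammatory genes went both ways. Nos2, the inducible nitric oxide synthase, had a level of 9.27, 17.7, 6.18 and 85.5 in mixed profiles against 11.7, 26.8, 6.98 and 103 in single macrophages. It was lower in 4 of 4 libraries, as were Slc7a2, an arginine transporter, and Il1a. Cxcl2, a neutrophil chemokine, was higher in 4 of 4, with ratios of 1.28, 1.10, 1.20 and 1.08. The share of cells with at least 3 Nos2 UMIs at 715 macrophage panel UMIs went the other way in 3 libraries, at 7.79%, 10.7%, 5.33% and 43.8% of mixed profiles against 6.98%, 12.5%, 5.13% and 39.3% (unthinned, 19.1%, 20.0%, 12.8% and 62.7% against 11.8%, 18.9%, 8.94% and 49.3%), so no order of mixed and single profiles is read for Nos2 positive cells.

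Apart from Trem2, summed levels of the macrophage-restricted lipid and resident genes were lower or went both ways. Hmox1, which degrades heme, stood at 119, 139, 123 and 164 in mixed profiles against 129, 189, 157 and 191, and Cd36, a scavenger receptor, was also lower in 4 of 4, with ratios of 0.606 to 0.903. At 715 macrophage panel UMIs, 55.7%, 48.5%, 53.5% and 68.4% of mixed profiles held at least 3 Hmox1 UMIs against 46.7%, 51.0%, 52.6% and 64.3% of single macrophages (unthinned, 83.7%, 77.8%, 85.1% and 90.6% against 64.9%, 70.9%, 74.3% and 82.1%), so the share of Hmox1 positive cells did not follow the level in 3 libraries. Trem2, a lipid receptor of tumor macrophages, was higher in 4 of 4, by ratios of only 1.00 to 1.05. Of 7 resident-like genes, Folr2 and Cbr2 were lower in 4 of 4 libraries and the other 5, among them Mrc1, Stab1 and Pf4, went in different directions. Folr2, a folate receptor of tissue-resident macrophages, had a level of 14.3, 15.3, 19.4 and 14.1 against 14.6, 19.0, 25.3 and 16.4, lowest relative to single macrophages in the FcgRII-titled library.

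The Fc gamma receptors, through which macrophages bind antibody-coated cells, differed little. Fcgr1, Fcgr4 and the signalling chain Fcer1g, all of activating receptors, were higher in 4 of 4 libraries, with mean ratios of 1.05, 1.08 and 1.04. Fcgr4 had a level of 76.3, 105, 62.8 and 98.9 in mixed profiles against 69.7, 99.5, 56.2 and 92.9. Fcgr2b, the inhibitory receptor that AT130-2 binds, stood at 153, 141, 128 and 132 against 153, 148, 145 and 132, higher in 2 libraries and lower in 2. Fcgr3 also went both ways. Of 7 restricted genes for phagocytosis, 1 (Sirpa) was higher and 2 (Lrp1 and Cd36) were lower in 4 of 4 libraries, and Mertk, a receptor for dying cells, had ratios of 0.946 to 1.02.

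Since mixed profiles held more macrophage RNA, the comparison was repeated in cells with macrophage panel UMIs between the quartiles of each library's mixed profiles (total UMIs still differed, with medians of 32716 to 44778 in mixed profiles and 24971 to 32904 in single macrophages), an alternative added after the data were seen. There, 96 of 425 genes were higher and 68 lower in 4 of 4 libraries. The ratio of MHC class II rose to a median of 1.17 and those of Folr2 and Cbr2 fell to 0.721 and 0.668. Spp1 remained at 0.790 and Slc7a2 at 0.717, both lower in 4 of 4 libraries. Mmp12 (0.761) was then above 1 in the CTLA-4-titled library, at 1.12, and Nos2 (0.782), Vegfa (1.12), Il1a (0.895), Cxcl2 (1.12), Cd36 (0.833) and Trem2 (1.02) also went both ways. Il1a was then above 1 in 3 libraries.

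Split by the T cell class, the macrophage side again stood close to single macrophages of the same library. Of the 425 restricted genes, 68 (16%) were higher and 71 (16.7%) lower in 4 of 4 libraries in CD8 profiles, 80 (18.8%) and 63 (14.8%) in CD4 profiles, and 45 (10.6%) and 54 (12.7%) in Foxp3 profiles. These are descriptions like the ones above, and the classes share the same single macrophages.

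The macrophage side of CD8 profiles had lower summed levels of Mmp12 and Spp1 than single macrophages in 4 of 4 libraries, although the share of cells with Spp1 at matched panel UMIs was higher in isotype control and the combination (41.4% against 40.7%, and 37.5% against 34.1%). The level of Mmp12 was 52.4, 50.6, 17.8 and 102 (against 66.7, 78.4, 58.9 and 149 in single macrophages). Nos2 went both ways, with ratios of 1.36, 0.688, 0.494 and 0.816, highest in isotype control and lowest in the FcgRII-titled library. MHC class II ratios had a median of 1.04, with 0 of 5 genes higher in all 4 libraries.

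The macrophage side of CD4 profiles had lower summed levels of inflammatory genes, with 4 of 6 lower in 4 of 4 libraries and a median ratio of 0.727. Nos2 had a level of 8.01, 11.8, 6.15 and 77.3, with ratios of 0.686, 0.441, 0.881 and 0.754. Cells with at least 3 Nos2 UMIs at matched panel UMIs made up 6.67%, 8.72%, 7.38% and 43.4% against 6.98%, 12.5%, 5.13% and 39.3% of single macrophages, so the share was above single macrophages in the FcgRII-titled library and the combination, where the summed level was below. The summed levels of Mmp12 and Spp1 were lower in 3 libraries and higher in the CTLA-4-titled one (1.24 and 1.09), while the share with Spp1 was above that of single macrophages in 4 of 4 (46.7%, 36.3%, 52.6% and 42.1% against 40.7%, 34.3%, 50.9% and 34.1%). For both genes no order is read where level and share differ. The summed levels of MHC class II genes stood at a median ratio of 1.01, while the share of cells with H2-Aa was above that of single macrophages in 4 of 4 libraries (86.9%, 80.2%, 66.0% and 88.8%), as it also was with CD8 and with Foxp3.

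The macrophage side of Foxp3 profiles had MHC class II ratios with a median of 1.12, and 3 of 5 genes were higher than in single macrophages in 4 of 4 libraries. H2-Aa had a level of 609, 611, 320 and 728 there, with ratios of 1.13, 1.00, 1.13 and 1.16. B cell genes were also higher with Foxp3 in the edgeR comparison of classes below. The median log2 fold change of 4 B cell genes was -1.28 for CD8 against Foxp3 and -1.55 for CD4 against Foxp3. Of the 4, 0 and 1 passed on the planned panel and 0 on the larger one. Their part in the MHC class II ratios was not tested. The share of cells with H2-Aa did not stand apart from the other classes in the same way, at 87.1% against 86.9% with CD4 in isotype control, 66.6% against 66.0% with CD4 in the FcgRII-titled library, and 81.5% against 88.8% with CD8 in the CTLA-4-titled one. Cxcl9, a chemokine that attracts T cells under interferon gamma, was higher than in single macrophages in 4 of 4 libraries with Foxp3, at ratios of 1.23, 1.34, 1.13 and 1.73, and in 2 of 4 with each of the other classes. The share of cells with at least 3 Cxcl9 UMIs at 715 macrophage panel UMIs was above that of single macrophages (31.1%, 48.6%, 24.4% and 65.2%) in 4 of 4 libraries in all 3 classes. The summed level of Mmp12 was lower in all 4, and those of Spp1 and Nos2 in 3. The shares went the other way, above those of single macrophages in 3 libraries for Spp1 (49.9%, 36.3%, 51.6% and 19.2%) and for Nos2 (7.10%, 9.93%, 6.30% and 49.5%), and no order is read for these genes. The Fc gamma receptor genes went both ways between libraries, each of the 5. The ratios of the combination rest on 19 profiles, with 163 UMIs of Mmp12 and 150 of Spp1.

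**Figure D5:**
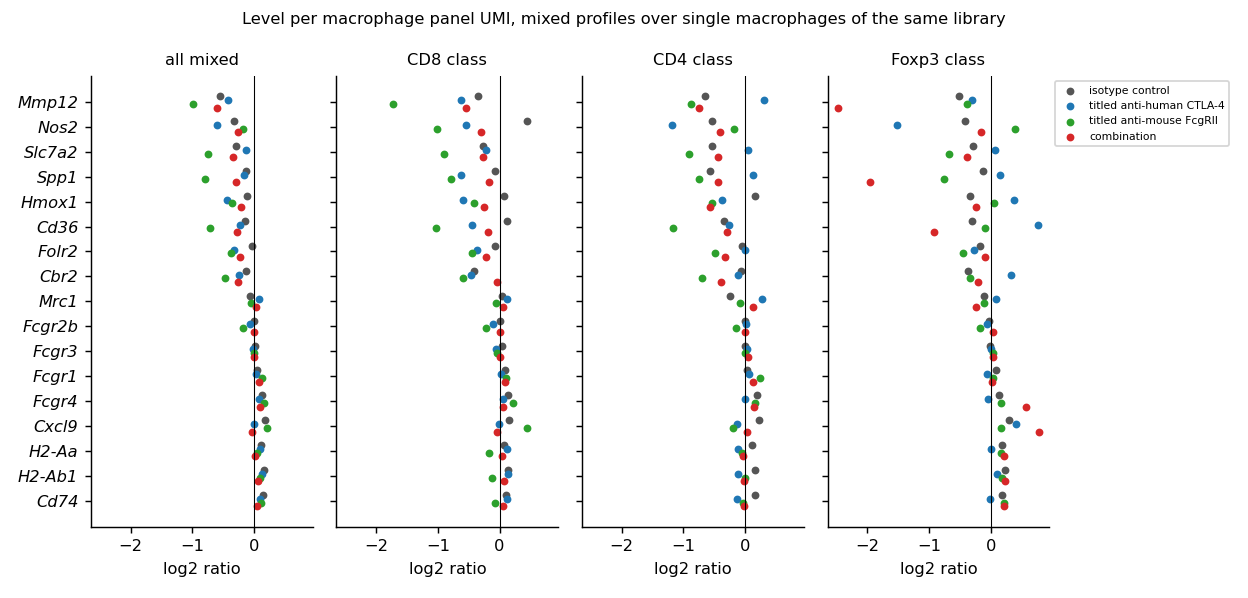
Log2 ratio (horizontal axis) of the level of 17 named macrophage genes in all mixed profiles and in the CD8, CD4 and Foxp3 classes to the level in single macrophages of the same library, with 1 point per library. For all mixed profiles, MHC class II genes lie just above 0 in all 4 libraries and Mmp12, Spp1 and Nos2 below 0, and the Foxp3 class of the combination (19 profiles) lies farthest out for Mmp12 and Spp1.

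Macrophage genes were then compared between the CD8, CD4 and Foxp3 classes of mixed profiles, which were split on T cell genes alone. UMIs were summed per class and library and fitted with edgeR's quasi-likelihood test with library as a block, scaled on macrophage genes, over 10945 genes. The scaling used 2 panels in turn: the 26 genes that the limit on C1q alone gives, as planned, and the 371 genes above, as an alternative added after the data were seen. Sums held between 857326 and 30423686 UMIs, and the smallest, Foxp3 of the combination, came from 19 profiles with 1005 UMIs of the 26 genes.

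Few macrophage-restricted genes differed between macrophages found with CD8 and with Foxp3 cells. Over all genes, 211 (1.93%) were higher and 223 (2.04%) lower with CD8 at an adjusted p under 0.05, and among 428 macrophage-restricted genes 0 were higher and 2 lower. S100a8, a calcium-binding protein best known from neutrophils and monocytes, had a level of 4.51, 1.21, 0.383 and 17.4 with CD8 and 5.35, 1.76, 1.20 and 54.2 with Foxp3, lower with CD8 in 4 of 4 libraries (edgeR log2 fold change -1.11, SE 0.21, adjusted p = 0.0021). Ccl6, a chemokine of myeloid cells, had a log2 fold change of -0.75 (SE 0.16, edgeR adjusted p = 0.0070), lower with CD8 in 3 libraries and higher in isotype control. On the larger panel the counts over all genes were 515 (4.71%) and 187 (1.71%), a split turned toward CD8, and the same 2 restricted genes passed (edgeR adjusted p = 0.014 and 0.040). Without the combination library S100a8 did not pass (log2 fold change -0.62, edgeR adjusted p = 0.085), nor did Ccl6 without the CTLA-4-titled (adjusted p = 0.11) or the FcgRII-titled library (0.13). With 20 Cd3 UMIs as the minimum neither passed (S100a8 -0.45, adjusted p = 0.80; Ccl6 -0.20, adjusted p = 0.85), and with 1 UMI for a class S100a8 did not (-0.66, adjusted p = 0.62). Without the isotype control library, 32 restricted genes passed on the planned panel and 4 on the larger one. At an unadjusted p under 0.05, 3 restricted genes were higher and 82 lower with CD8, and DESeq2, scaled over all genes, called 15. Of all 10945 genes, 1331 had an unadjusted edgeR p under 0.05. The median log2 fold change of the 428 restricted genes was -0.137 on the planned panel and -0.0014 on the larger one.

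With CD4 cells, S100a8 was lowest. Its level there was 1.49, 0.351, 0.332 and 10.3, below CD8 in 4 of 4 libraries (for CD8 against CD4, edgeR log2 fold change 1.16, SE 0.24, adjusted p = 0.0042) and below Foxp3 (log2 fold change -2.27, SE 0.24, edgeR adjusted p = 3e-06). On the planned panel it was the only macrophage-restricted gene to pass between CD8 and CD4, while scaled over all genes 16 passed (TMM, 15 of them lower with CD8) or 40 (DESeq2, 39 lower). Over all genes, 363 genes (3.32%) were higher and 74 (0.676%) lower with CD8. Scaled over all genes (TMM), that split was 339 and 151, and on the larger panel 938 (8.57%) and 89 (0.813%). Both S100a8 differences passed without each library in turn, at log2 fold changes of 0.95 to 1.31 and of -1.94 to -2.61. Against CD4, CD8 did not pass without profiles with NK markers (log2 fold change 0.79, edgeR adjusted p = 0.16). Nor did it with 5 Cd3 UMIs as the minimum (0.82, edgeR adjusted p = 0.058). CD4 against Foxp3 did not pass with 20 Cd3 UMIs (-1.67, edgeR adjusted p = 0.055). S100a9, its partner and a neutrophil marker, moved with it. S100a9 was higher with CD8 than with CD4 (edgeR adjusted p = 0.043, on the larger panel 0.076). It was also higher with Foxp3 than with CD4 (edgeR adjusted p = 0.00080, on the larger panel 0.019). The neutrophil receptor Cxcr2, and Csf3r, which single macrophages also held, did not pass either test. Whether neutrophil RNA takes part in these differences was not tested.

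Macrophages found with CD4 cells differed from those found with Foxp3 cells in 9 restricted genes, all lower with CD4 on the planned panel. These were the chemokines Cxcl3, Cxcl2, Ccl6, Cxcl9 and Ccl2, with S100a8, Il1rn, Fnip2 and Clec4e. Cxcl9 had a level of 118, 171, 72.7 and 258 with CD4 and 123, 252, 94.6 and 436 with Foxp3 (edgeR log2 fold change -0.58, SE 0.15, adjusted p = 0.033). The level with Foxp3 was higher in 4 of 4 libraries, least in isotype control. Over all genes, 73 (0.667%) were higher and 244 (2.23%) lower with CD4, and scaled over all genes (TMM) 95 and 145. Among restricted genes, TMM gave 2 higher and 1 lower with CD4, and DESeq2, scaled over all genes, 5 higher and 3 lower. Their median log2 fold change was -0.112 on the planned panel and -0.0015 on the larger one. On the larger panel, 76 (0.694%) were higher and 172 (1.57%) lower, S100a8 alone passed among restricted genes, and Cxcl9 had an edgeR adjusted p of 0.17. The planned panel also gave 3836 calls over all genes without the isotype control library, against 88 on the larger panel, so that only S100a8 is read from this comparison.

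On the state lists, few genes passed between the classes, and those that did were mostly not restricted to macrophages. Gpnmb, a lysosomal glycoprotein, was lower with CD8 than with Foxp3 (edgeR log2 fold change -0.95, adjusted p = 0.022) and lower with CD4 than with Foxp3 (-1.08, adjusted p = 0.017). Iigp1 was lower with CD8 than with Foxp3 (-0.52, adjusted p = 0.0070), and Ndrg1 and Cd80 were lower with CD4 than with Foxp3 (edgeR adjusted p = 0.017 and 0.035), beside Cxcl2 and Cxcl9 above. On the larger panel Iigp1 alone of these passed (edgeR adjusted p = 0.036). Of 42 genes tested on the Fc gamma receptor, resident-like, phagocytosis, macrophage lineage and MHC class II lists, 0 passed the edgeR test in each of the 3 comparisons, on either panel. At an unadjusted edgeR p under 0.05, 15 were lower with CD8 than with Foxp3 and 0 differed between CD8 and CD4. Lower with CD4 than with Foxp3 were 8, of which 6 are MHC class II genes. In the same order, 1331, 1314 and 1766 of all 10945 genes were under that p. Of the 428 restricted genes, 82 were lower with CD8 and 65 lower with CD4 than with Foxp3. DESeq2, scaled over all genes, called 4, 11 and 2 of the 42 genes, and edgeR with TMM over all genes 1, 2 and 0. Nos2 had edgeR adjusted p-values of 0.998, 0.667 and 0.445, with log2 fold changes of -0.03 (SE 0.24, CD8 against Foxp3), 0.34 (SE 0.24, CD8 against CD4) and -0.37 (SE 0.25, CD4 against Foxp3). For Fcgr2b the log2 fold changes were -0.19, -0.08 and -0.11, each with an SE of 0.09. Values that miss the threshold do not show that the states were equal.

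Genes of the T cell side followed the split, as the classes were made on T cell markers, and are given as a description. Their levels are per macrophage RNA and not per T cell RNA. The T cell part was 16.6%, 22.7%, 17.5% and 16.3% of UMIs in CD8 profiles. It was 12.1%, 16.8%, 11.8% and 13.5% in CD4 profiles and 13.3%, 17.4%, 14.3% and 12.8% in Foxp3 profiles. How much of the differences below comes with the amount of T cell RNA was not tested. With CD8, Gzmf, a granzyme, Rgs8 and Smyd1 were among the most increased against both other classes, and Ifng and the chemokines Ccl3 and Ccl4 were higher than with Foxp3. Of 8 Treg genes, 8 were lower with CD8 than with Foxp3, led besides Foxp3 by Il2ra, Ctla4 and Tnfrsf receptors. Lrrc32, which holds TGF-beta on Tregs, and the chemokine receptor Ccr4 had log2 fold changes of -5.00 and -4.92 for CD8 against Foxp3. Cd40lg, which activates antigen-presenting cells, was higher with CD4 than with CD8 in 4 of 4 libraries (log2 fold change of CD8 against CD4 -3.58). Il13 and Il2 had log2 fold changes of -3.65 and -3.19, but Il13 was at 0 with both classes in the FcgRII-titled library, and Il2 was highest with CD4 in the CTLA-4-titled library and not higher than with CD8 in the combination. Of 7 genes of dividing cells, which both cell types express, 6 were higher with CD8 than with CD4, and which side differs was not tested.

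T cell genes were also compared between mixed profiles and single T cells, per 10000 UMIs of the 332 T cell genes. Of 366 restricted genes, 56 (15.3%) were higher and 47 (12.8%) lower in all 4 libraries. Pdcd1, Lag3 and Tigit, receptors found on exhausted T cells, were lower in mixed profiles in 4 of 4, with mean ratios of 0.827, 0.871 and 0.881, while Tox, the other restricted gene of this list, was lower in 2 and higher in 2 (1.08). Within CD8 profiles, Pdcd1 and Lag3 were lower in 4 of 4 libraries and Tigit in 2. Lag3 and Tigit went both ways within CD4 profiles, and Pdcd1 and Lag3 within Foxp3 profiles. Pdcd1 had a ratio of 0.790, 0.855, 0.850 and 0.815. Prf1, the pore-forming protein of killer cells, was higher in 4 of 4, with ratios of 1.70, 1.15, 1.17 and 1.14, and Ifng lower, with ratios of 0.963, 0.403, 0.847 and 0.792. Within CD8 profiles Prf1 had ratios of 1.18, 1.04, 1.23 and 1.12, and Ifng of 1.01, 0.525, 0.880 and 0.750. Prf1 was also higher in 3 libraries within CD4 profiles (6.73 to 20.2) and within Foxp3 profiles (1.77 to 6.85). In the remaining library, single T cells of that class held none. Within CD4 profiles Ifng was lower in 3 libraries and higher in the combination (2.77). With Foxp3, Ifng was higher in isotype control (21.9) and the CTLA-4-titled library (1.33), and single Foxp3 cells of the other libraries held none. NK cells also make Prf1, and NK genes reached 3 UMIs in more of the mixed profiles than of the single T cells, as given above, whose part in the result was not tested. Foxp3 had ratios of 1.12, 1.57, 1.51 and 2.13, while the other 6 restricted Treg genes went in different directions. Within Foxp3 profiles, against single Foxp3 cells, its ratios were 0.732, 0.818, 0.913 and 1.515, lower in 3 libraries. The last ratio rests on 4 single cells.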

How the data were processed

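Viable CD45+ cells of 4 pooled tumor samples were profiled with 10x Flex. The authors deposited whole-number UMI counts of 19059 genes per cell from Cell Ranger (7.0.0 in the submitters' processing notes, 7.2.0 in the matrix header) on mm10. Libraries held 129151823 to 196362818 UMIs in 6097 to 8173 cells. Kept cells had at least 500 genes and at most 10% mitochondrial UMIs. The study removed doublets with DoubletFinder in its own analysis; whether the deposited matrices precede that step was not stated. No doublet caller was run here, since doublets are among the profiles described.

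The members and gene lists were chosen with earlier results of these data known. Single T cells were planned with C1q under 0.05% of UMIs, and the limit of 0.3% on 12 macrophage lineage genes was added after the data were seen, because C1q alone left a macrophage panel of 26 genes instead of 371. Panel genes were at least 20-fold apart and at 10 CPM or more, without the genes of the rule and lists. The T cell part was (mixed - macrophage) / (T cell - macrophage) on the T cell panel, and the macrophage part the reverse. CPM and levels were computed from summed counts. Class sums from under 10 cells were to be left out.

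Classes were compared with edgeR 4.0.16 (glmQLFit, filterByExpr, Benjamini-Hochberg over all genes, library as block), and with DESeq2 1.42.0 as an alternative, in R 4.3.3. The rest used Python 3.11.15 with numpy 2.4.6, pandas 2.3.3 and scipy 1.17.1. Both estimates were tested on simulated counts. Of each list, at most the 4 members with the largest and smallest ratios, chosen receptors and state genes, and per edgeR comparison at most 8 genes in each direction, were named; others, such as Clec4e, Ifng, Ccl3, Ccl4 and S100a9, were chosen after their values were seen. Alternatives changed the C1q, Cd3 and subset minimums, the panels, the scaling, the filter and the block, and left out each library. The mice behind each sample were pooled, so edgeR p-values measure how the classes differ over 4 libraries, not over animals. One gene of the Spp1 state list is not reported here and enters none of that list's values.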

Additional observations from a re-analysis of the deposited data

Results flagged for a closer look

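In 3 results, the libraries moved in opposite directions, and with 1 library per group the differences between libraries were not tested. The CD8 share at 10 Cd3 UMIs, mixed profiles minus single T cells, was 2.08 percentage points in isotype control, 1.61 in the CTLA-4-titled library, -2.07 in the FcgRII-titled library and 4.09 in the combination.

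The median ratio of mixed profiles to single macrophages over the Nos2 and inflammatory genes was 1.001 in isotype control, 0.925 in the CTLA-4-titled library, 0.938 in the FcgRII-titled library and 0.870 in the combination. Over the phagocytosis genes it was 0.995, 1.005, 0.946 and 0.977 in the same order.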

How the results depend on the processing

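Genes picked by fold change in the edgeR comparisons, at most 8 in each direction, did not turn their direction under any alternative run. Other calls, such as Gpnmb, Iigp1 and S100a9, were not followed in this way. Among values with no test, some turned, such as the CD8 difference after thinning, the phagocytosis and Fc gamma receptor medians given below, and, in cells within one range of macrophage panel UMIs, the mean ratios of Vegfa (0.899 to 1.12), S100a8 (1.29 to 0.766) and Ptgs2 (0.978 to 1.33). Of 300 alternative values of summaries 223 stayed within the spread or within 1.5 times the count. Among the edgeR genes picked by fold change, 942 of 1144 alternative values kept their call and 202 lost it. For the macrophage-restricted ones 115 of 220 kept it. Without the library block, which the design uses because sums of one library share their cells' source, the comparisons gave 186, 133 and 67 calls (CD8 against Foxp3, CD8 against CD4, CD4 against Foxp3, as also below), with 0 macrophage-restricted genes in each. The cause of the other shifts was not tested.

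For T cell classes, the CD8 difference (median over libraries -3.20 percentage points) was -8.95 with at least 20 Cd3 UMIs and 1.84 after thinning, and the CD4 difference (-4.01) was -6.51 with at least 20 Cd3 UMIs. The sum of parts (99.4%) was 107.5% with single T cells by C1q alone, with a T cell part of 21.4% (15.4%), and 98.4% with panel genes 50-fold apart.

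For macrophage states (medians of ratios over libraries), single macrophages without NK, B or neutrophil UMIs gave 0.863 for the Nos2 genes (0.932 as reported), 0.574 for the Spp1 state (0.787), 0.752 for Hmox1 (0.908), 0.896 for resident-like genes (0.939), 1.24 for MHC class II (1.07), 1.07 for Fc gamma receptors (1.03) and 1.01 for phagocytosis (0.986). With such cells left out on both sides, the Nos2 genes were at 0.821, Fc gamma receptors at 1.05 and phagocytosis at 1.03. The neutrophil minimum, which includes Csf3r, was reached by 35.4%, 40.3%, 33.6% and 52.1% of single macrophages, so both settings drop many macrophages. Cells within that range gave 0.884 for resident-like genes, 1.17 for MHC class II and 0.947 for phagocytosis. Single T cells by C1q alone gave 1.04 for MHC class II and 0.993 for Fc gamma receptors.

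For CD8 against Foxp3 (434 calls, 2 restricted), no filter on low counts gave 718 and 27, and the larger panel 702 calls. The restricted count was 7 with TMM over all genes, 15 with DESeq2 and 4 with 3 UMIs for a class. Leaving out each library gave 273 to 516 calls and 1 to 32 restricted. On the larger panel it gave 744 calls and 1 restricted without the combination, 4 restricted without isotype control and 1 without the FcgRII-titled library. For CD8 against CD4 (437 and 1), no filter gave 691 and 8, C1q at 0.5% 730 and 2, 1 UMI for a class 699 and 4, and the larger panel 1027 calls. The restricted count was 16 with TMM, 40 with DESeq2, 3 with 20 Cd3 UMIs, 2 with 3 UMIs for a class, 2 without profiles with NK markers, and 1 to 5 on leaving out each library. On the larger panel it was 3 without isotype control, and 6, with 1355 calls, without the combination.

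For CD4 against Foxp3 (317 and 9), no filter gave 612 and 32, and leaving out each library 109 to 3836 and 1 to 180, the highest without isotype control. On the larger panel, calls were 88 without isotype control and 83 without the FcgRII-titled library, and restricted genes 1 with all libraries and 3, 4, 1 and 3 without each in turn. The restricted count was 3 with TMM, 8 with DESeq2, 3 with C1q at 0.1%, 4 with 5 Cd3 UMIs and 5 without profiles with NK markers. No paired analysis beyond the library block was possible because each group has 1 library.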

Other observations

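Genes of dividing cells were below the expected sum of both cell types. After the expected T cell part was taken off, all 7 (Mki67, Top2a, Stmn1, Birc5, Ccnb2, Tyms and Rrm2) stood below single macrophages in 4 of 4 libraries, with Mki67, a protein of cycling cells, at 0.767, 0.676, 0.752 and 0.782 times. Of all 8119 genes restricted to neither side, 14.5% were below 1 and 15.3% above 1 in 4 of 4 libraries on this ratio. Observed Mki67 was 203, 202, 211 and 158 CPM against an expected 253, 258, 265 and 191. Among 12 costimulatory and adhesion genes, the same ratio was below 1 in 4 of 4 libraries for 5 (Itgb2, Cd48, Cd80, Cd274 and Pdcd1lg2) and above 1 for 1, Icosl, the ligand of ICOS, at 1.05, 1.13, 1.14 and 1.10, beside the 14.5% and 15.3% of all such genes. Pdcd1lg2, which encodes the PD-1 ligand PD-L2, stood at 0.862, 0.843, 0.653 and 0.797, and Cd274, which encodes PD-L1, at 0.933, 0.893, 0.988 and 0.978. These genes are not restricted to macrophages, so their macrophage level rests on the estimated parts, and no test was made.

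Of 9 genes induced by type I interferon (Ifit1, Ifit2, Ifit3, Isg15, Rsad2, Usp18, Oasl1, Irf7 and Cxcl10), the ratio after the T cell part was taken off was above 1 in 4 of 4 libraries for 4 (Ifit1, Isg15, Oasl1 and Irf7), beside 15.3% of all such genes. The other 5 were below 1 in isotype control, and Rsad2 also in the FcgRII-titled library. Ifit1 had an observed level of 67.1, 90.3, 69.5 and 80.3 CPM against an expected 63.3, 76.1, 55.4 and 57.3. Of 7 genes on the interferon gamma list that are restricted to neither side, 4 (Gbp2b, Irf1, Socs1 and Iigp1) were above 1 in 4 of 4 libraries, Gbp2 and Gbp5 in 3 and Cd274 in 0. Iigp1, a GTPase, had ratios of 1.11, 1.10, 1.08 and 1.08.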
